A study of Homo sapiens with 5 samples.

Results

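The intergenic CpG islands of human induced pluripotent stem cells (iPSCs) are described here as 12242 windows of 1000 bases, chosen because the deposited table gives them the CpG annotation of an island and the gene annotation Intergenic, out of 288391 windows in all. DNA methylation was measured by reduced representation bisulfite sequencing (RRBS), in which a restriction enzyme enriches CpG-rich DNA, bisulfite converts unmethylated cytosines, and the share of cytosines left unconverted in a window gives its β-value, written here as a percent. The cells were of the wild-type line 201B7 (HPS0063), an established iPSC line kept without feeder cells in mTeSR1 on laminin511-E8. The screening assay of the study used 201B7 cells carrying an mCherry reporter fused to a methyl-CpG-binding domain. The RRBS methods of the study do not say whether the cells sequenced here carried this reporter. They were exposed for 48 h to 10 nM 5-aza-dc, to theophylline or propyl gallate, each at 1 µM, to etoposide at 1 nM, or to 0.1% DMSO as the vehicle control. Etoposide is a topoisomerase II poison, propyl gallate an antioxidant food additive, theophylline a methylxanthine that inhibits phosphodiesterases, and 5-aza-dc a cytidine analogue that traps DNA methyltransferases. Each condition was 1 library from 1 cell line, so there was no replicate error: intervals below cover counting error only, and a Fisher's exact test compared 2 libraries and not 2 conditions. All 4 comparisons share the same vehicle control library, and the doses differ between the chemicals.

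A window is counted in cytosine calls, and 1 read or its PCR copies can give several. Before the coverage scaling of the authors, all 288391 windows held 188844850 to 228919184 calls per library. The intergenic island windows held 13769066 to 16682593 of them. The median intergenic island window held 996 calls in the vehicle control and 823.5 to 898.5 in the other libraries, also before scaling. The median width of a window's Wilson 95% interval lay between 3.26 and 3.65 percentage points. As a check of the cell type, 8 of 11 pluripotency markers had a window annotated to their promoter. LIN28A, DNMT3B and SALL4 had every promoter window under 10% in the vehicle control. POU5F1, the core pluripotency factor, had promoter windows at 87.9% and 93.1%, and those of DPPA2 and LIN28B were also at least 70%, while ZFP42 had 60.9% and L1TD1 15.98%, so the markers as annotated do not give 1 picture of the cell type.

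The annotation Intergenic did not mean that a window lies outside all genes. Each window comes with an assigned gene in the table, and 46 of the 12242 windows overlapped that gene. Against RefSeq genes on GRCh38.p14, 7191 (58.7%) overlapped a gene and 5916 (48.3%) a protein-coding gene, and 53.9% overlapped some gene of the deposited table itself. The assigned gene had the nearest start of the table for 74.8% of the windows, and its start lay a median of 15266.5 bases away. For example, the window that holds the start of FLOT1 was assigned to IER3, 1548 bases away, and the window that holds the start of ACACB was assigned to UNG, 56404 bases away. The windows are therefore given below in 3 sets. Of them, 978 overlap a stretch from 250 bases before to 50 after a RefSeq gene start, in full or in part. They are called windows with a start, though a window that overlaps part of a stretch need not hold the start itself. Another 6256 lie inside a RefSeq gene without such an overlap, and 5008 lie outside both. The name intergenic is kept for the deposited label only.

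CpG islands are stretches in which CpG dinucleotides have not been lost over evolution, and most islands at gene starts stay free of DNA methylation in all tissues. Islands away from annotated starts, often called orphan islands, include starts of unannotated or tissue-specific transcripts, borders of developmental genes kept by Polycomb complexes, and CpG-rich repeats that are densely methylated. Methyl groups are copied to new strands by DNMT1 and set anew by DNMT3A and DNMT3B, and pluripotent cells express the latter strongly.

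Sequences of the extremes are shown first. RefSeq (GRCh38.p14) gives a promoter stretch for 722 gene starts in 618 of the windows, 567 of protein-coding and 155 of long non-coding RNA (lncRNA) genes. The 618 are fewer than the 978 windows that overlap any part of such a stretch. Printed are the 250 bases before the start of the protein-coding and lncRNA gene whose window was lowest and highest in the vehicle control with at least 1000 calls in all 5 libraries, from 5′ to 3′ on the strand of the gene, with each CpG in capitals.
FLOT1, chr6:30742688-30742937, minus strand: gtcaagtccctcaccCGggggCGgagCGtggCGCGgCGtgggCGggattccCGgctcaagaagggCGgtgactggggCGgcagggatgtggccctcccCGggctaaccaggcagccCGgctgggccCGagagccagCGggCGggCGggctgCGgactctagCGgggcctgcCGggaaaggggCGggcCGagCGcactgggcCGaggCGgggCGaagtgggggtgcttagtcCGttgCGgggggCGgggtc
GCSAML, chr1:247518202-247518451, plus strand: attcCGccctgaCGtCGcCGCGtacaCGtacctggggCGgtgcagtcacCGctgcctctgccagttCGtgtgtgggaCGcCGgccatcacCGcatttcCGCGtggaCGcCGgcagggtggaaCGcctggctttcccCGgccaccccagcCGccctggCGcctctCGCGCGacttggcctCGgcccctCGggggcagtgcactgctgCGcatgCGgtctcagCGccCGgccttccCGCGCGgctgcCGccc
LOC124903662, chr16:21502061-21502310, plus strand: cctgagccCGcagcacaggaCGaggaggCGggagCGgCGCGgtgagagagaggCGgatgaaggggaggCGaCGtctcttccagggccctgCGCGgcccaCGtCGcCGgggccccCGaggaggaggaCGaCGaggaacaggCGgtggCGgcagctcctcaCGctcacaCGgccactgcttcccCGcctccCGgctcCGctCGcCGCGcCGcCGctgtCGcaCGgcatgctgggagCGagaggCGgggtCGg
LOC105370790, chr15:41486370-41486619, minus strand: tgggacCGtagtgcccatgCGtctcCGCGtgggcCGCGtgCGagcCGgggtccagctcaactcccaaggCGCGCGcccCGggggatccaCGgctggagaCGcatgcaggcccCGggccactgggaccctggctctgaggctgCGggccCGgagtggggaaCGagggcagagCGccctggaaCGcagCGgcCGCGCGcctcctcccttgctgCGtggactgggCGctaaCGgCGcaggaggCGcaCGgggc
FLOT1 encodes flotillin 1, a membrane raft protein, and 1 of 2121 calls in its window was methylated in the vehicle control. The window was at 0.0471% in the vehicle control, 0.344% after 5-aza-dc, 0.0766% after etoposide, 0.311% after theophylline and 0.858% after propyl gallate. The window with the GCSAML start, a gene related to a germinal center signalling protein, had 92.6%, 91.0%, 93.3%, 93.8% and 91.5% in the same order. The printed bases hold 28 CpGs for FLOT1 and 33 for GCSAML, so here the methylated stretch has more. In the lncRNA pair the order of CpGs was the opposite: LOC124903662 had 0.495% in the vehicle control with 34 CpGs printed, and LOC105370790 had 95.4% with 30.

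Over all 722 stretches CpGs were fewer in windows of higher methylation. The kinds of gene differed between levels too, with 493 protein-coding and 78 lncRNA stretches under 10%. At 90% or more there were 10 and 34. The CpG counts were not split by kind of gene. The stretches counted run from 250 bases before to 50 after the start. Their windows were chosen as CpG islands and were covered by RRBS, while all RefSeq stretches were not so chosen. Values of all RefSeq stretches are thus given for scale and are not a matched background. The median was 29 CpGs per stretch in the 571 stretches of windows under 10%, 25 at 10% to 30%, 21 at 30% to 70%, and 15 both at 70% to 90% and at 90% or more, against 14 in all 35116 RefSeq promoter stretches. The ratio of observed to expected CpGs went from a median of 0.842 under 10% to 0.560 at 90% or more, beside 0.579 in all stretches. The GC box letters GGGCGG, searched on both strands, stood in 78.1% of the stretches under 10%, in 38.6% of those at 90% or more and in 45.0% of all RefSeq stretches. CCGG, the site cut in RRBS, stood in 94.9% of the stretches under 10% and 77.3% of those at 90% or more, against 63.1% of all. TGACGTCA, the cyclic AMP response element, was in 2.10% of the stretches under 10% and 1.85% of all. Of the protein-coding starts, 493 of 567 (86.9%) lay in a window under 10% and 21 (3.70%) in one of at least 70%. Of the lncRNA starts, 78 of 155 (50.3%) lay under 10% and 55 (35.5%) at 70% or more.

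The hairpins of 5 RefSeq microRNAs (miRNAs) lay in the windows, and their windows covered the whole range of levels. Mature strands are printed for 3 of them, 1 at each level, with the seed (bases 2 to 8) in capitals.
hsa-miR-2682-5p: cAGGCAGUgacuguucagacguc
hsa-miR-656-3p: aAUAUUAUacagucaaccucu
hsa-miR-373-3p: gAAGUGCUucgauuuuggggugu
No seed is shared among them. MIR2682 lies beside MIR137, and its window had 1.46% in the vehicle control, 1.95% after 5-aza-dc, 0.795% after etoposide, 0.0806% after theophylline and 1.73% after propyl gallate, all near the bottom of the scale. Theophylline was below the control there (Fisher's exact test, adjusted p = 0.0030). MIR656 belongs to the imprinted miRNA cluster of chromosome 14, and its window had 60.4%, 45.9%, 60.0%, 60.4% and 60.2% in the same order, with 76 calls after etoposide and 83 after theophylline. The 5-aza-dc value was lowest, but Fisher's exact test between the 5-aza-dc and control libraries gave an adjusted p of 0.144. MIR373, of the miR-371 to miR-373 cluster that is abundant in pluripotent cells, lay in a window with 95.3%, 94.6%, 93.4%, 93.7% and 93.4%. The windows of MIR6727 and MIR1909 had 94.8% and 94.7% in the vehicle control.

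In the vehicle control the 12242 windows split into a methylated majority and an unmethylated minority. Their mean β-value was 66.2% and their median 89.4%, with 2628 windows (21.5%) under 10% and 8274 (67.6%) at 70% or more. Only 736 (6.01%) lay between 30% and 70%. Islands annotated to promoters were mostly unmethylated, with 71.8% of 16238 windows under 10% and a mean of 19.3%. Islands in gene bodies had a mean of 42.5%, and intergenic windows outside islands, shores and shelves had 88.8% with 0.688% under 10%. The intergenic islands thus lay between gene-body islands and intergenic windows outside islands in level. Of the latter, 52.1% overlapped a RefSeq gene, so their name follows the deposited label too. The share at 70% or more was 67.1% in the 5-aza-dc library and 67.7% to 67.8% in those of the other chemicals. Within it the share at 90% or more differed more, with 47.6% in the vehicle control, 42.4% after 5-aza-dc, 49.7% after both etoposide and propyl gallate, and 51.1% after theophylline.

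**Figure D1:**
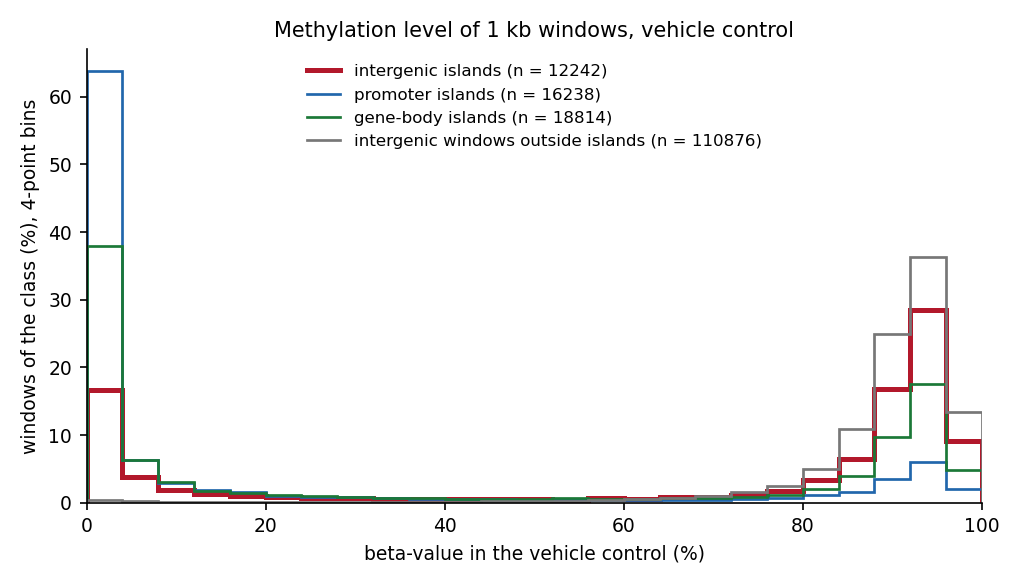
Share of windows (vertical axis, percent of the class) in bins of 4 percentage points of the vehicle control β-value (horizontal axis), for intergenic islands, promoter islands, gene-body islands and intergenic windows outside islands. Intergenic islands have a peak under 10% with 21.5% of the windows and a larger one above 70% with 67.6%.

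Windows with a RefSeq start were mostly unmethylated, but most unmethylated windows had no start. The 978 windows with a start had a mean of 18.2% and a median of 1.73%, and 709 (72.5%) were under 10%, close to the 71.8% of annotated promoter islands. Windows inside a RefSeq gene had a mean of 70.7% with 17.1% under 10%, and windows outside RefSeq genes 69.9% with 17.0%. The shares of the windows inside genes and of those outside were close, and both were far from those of windows with a start. Of the 2628 windows under 10%, 709 overlapped a start stretch, 1068 lay inside a gene without one and 851 lay outside genes.

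Level also went with island length, given in the table to the nearest 100 bases. The islands had a median of 800 bases, and the longest 29100, while promoter islands had a median of 1300. Windows of islands under 600 bases had a mean of 78.7%, those of 600 to under 1000 bases 74.6%, those of 1000 to under 2000 bases 55.9% and those of 2000 or more 43.6%. The order held in windows outside RefSeq genes, with means of 78.0%, 76.8%, 61.5% and 45.5%. The median calls in the vehicle control went up with length too, from 833.5 to 1566, so depth and length moved together. Windows within 2 Mb of an autosome end made up 19.7% of the intergenic islands on autosomes against 8.88% of all autosomal windows. These 2339 windows had a mean of 77.8%, with 8.08% under 10%, and the other 9511 had 63.3%, with 24.8% under 10%.

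**Figure D2:**
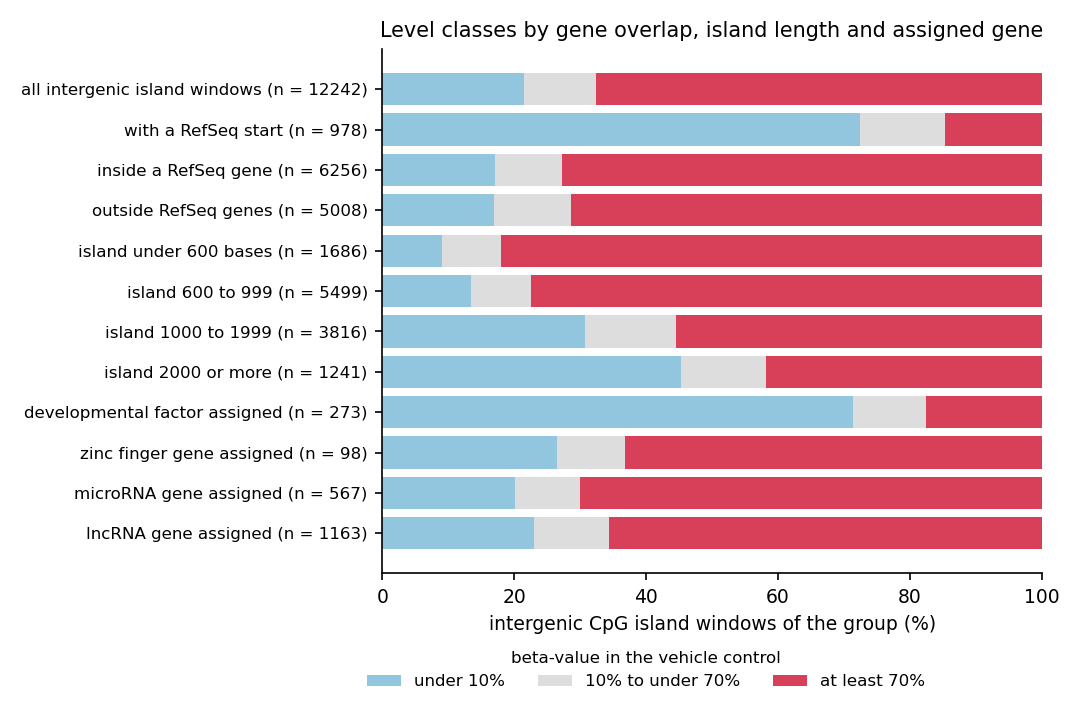
Percent of intergenic CpG island windows (horizontal axis) under 10%, from 10% to under 70%, and at 70% or more in the vehicle control, for all windows and by RefSeq overlap, island length in bases and the kind of gene the table assigns. Windows with a RefSeq start (72.5%) and windows assigned to developmental transcription factors (71.4%) have the largest shares under 10%.

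Windows near developmental transcription factors were also mostly unmethylated, though they are few among all windows under 10%. The table assigns 273 windows to 98 genes of these families (HOX, PAX, FOX, TBX and the like, many of which set body axes and cell fates). Their mean was 21.6% and their median 3.92%, with 195 (71.4%) under 10%, beside a median of 89.4% over all intergenic islands. Of the 273, 10 overlapped a RefSeq start stretch. Windows assigned to zinc finger (ZNF) genes, lncRNA genes and miRNA genes had medians of 89.2%, 88.3% and 89.4%. The 5517 windows with other named genes had a median of 89.5%.

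Most families were low, and a few of their windows were high. All 18 HOX windows lay between 1.13% and 22.9%, and 12 were under 10%. The 31 FOX windows had 22 under 10% and 6 at 70% or more. All 11 MSX windows lay under 10%, between 2.10% and 7.03%. EN1, which patterns midbrain and limb, had 6 of 6 windows under 10%, over chr2:118841001-118859000, with means of 3.37% in the vehicle control, 3.23% after 5-aza-dc, 3.31% after etoposide, 4.04% after theophylline and 4.35% after propyl gallate. TBX3, a limb and breast T-box factor, had 7 of 7 under 10% over chr12:114664001-114698000, and TFAP2A, a neural crest factor, 6 of 6 over chr6:10381001-10392000. POU3F2, a neuronal factor, had means of 8.59% in the vehicle control, 4.05% after 5-aza-dc, 10.6% after etoposide, 10.3% after theophylline and 8.91% after propyl gallate over 5 windows, lowest after 5-aza-dc. NKX6-2, a neural tube and oligodendrocyte factor, stood apart with 22 of 22 windows at 70% or more, from 88.5% to 98.6%. They spread over chr10:132680001-132797000 toward the end of the long arm, and their means were 92.7%, 90.2%, 92.2%, 93.6% and 91.8% in the order above.

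Between the peaks, 455 windows lay from 30% to under 70% in all 5 libraries. The deepest with a known imprinted gene was at GNAS (chr20:58854001-58855000), where parental alleles are known to differ in methylation. It had 38.7% in the vehicle control, 35.01% after 5-aza-dc, 36.4% after etoposide, 39.0% after theophylline and 34.7% after propyl gallate, with 5003 to 5808 calls. At BRI3BP (chr12:125049001-125050000) the β-values were 39.96%, 36.6%, 42.9%, 39.5% and 35.5%. At KREMEN2 (chr16:2967001-2968000), which encodes a Dickkopf receptor, they were 41.0%, 34.0%, 40.3%, 39.9% and 41.9%. The levels of these named windows differed by less than 10 percentage points over the 5 libraries. Some other deep windows ranged more widely. The window at PTPRN2 (chr7:157693001-157694000) had 37.0% after propyl gallate and 50.5% after theophylline. The window at chr20:33862001-33863000 had 48.4% after etoposide and 58.8% after theophylline.

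Neighbouring windows resembled each other in level, while their measured changes were hardly correlated. The 12242 windows formed 8482 runs of adjacent windows, 5402 of them of 1 window, and touched 8662 islands. Over the 3760 pairs of adjacent windows, which share a library and often an island, Pearson's r of the vehicle control β-value was 0.81, while r of the change against the control lay between 0.046 and 0.082. Each measured change carries the counting error of both libraries, which lowers its r. In the vehicle control the median neighbours were 3.97 percentage points apart, but 319 pairs (8.48%) differed by at least 50.

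The 4 longest runs had 8 windows each and showed 3 forms. The run at HOXD3 and HOXD4 (chr2:176156001-176164000) was low throughout, from 2.59% to 17.7% in the vehicle control. The run near AK6P1, a pseudogene beside the centromere of chromosome 12 (chr12:34335001-34343000), was high throughout, from 77.9% to 91.9%. The run over CASKIN1, assigned to TRAF7 (chr16:2179001-2187000), was at 83.9% to 95.8% except for its first window at 54.0%. The run assigned to TCF3, which overlapped no RefSeq gene (chr19:1669001-1677000), went up and down within 8 kb: its windows had 7.05%, 48.5%, 7.49%, 1.62%, 73.8%, 87.7%, 31.4% and 2.91% in order. All 5 libraries kept this profile, and no window of the 4 runs was called after any chemical.

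The first question of the design was whether each chemical raised or lowered methylation. The mean β-value of the intergenic islands was 66.2% in the vehicle control, 65.1% after 5-aza-dc, 66.5% after etoposide, 66.9% after theophylline and 66.6% after propyl gallate. Against the control this was higher by 0.335 percentage points (95% counting interval 0.295 to 0.375) for etoposide, 0.720 (0.680 to 0.759) for theophylline and 0.383 (0.344 to 0.423) for propyl gallate. For 5-aza-dc the difference was -1.08 (-1.12 to -1.04). These intervals exclude 0, but no spread between libraries of 1 condition was measured. The mean over windows was higher than in the control on 22 of 22 autosomes after propyl gallate and theophylline, on 21 after etoposide (chromosome 15 was lower, by 0.07) and on 0 after 5-aza-dc.

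The mean of the log2 β-value ratio, which leaves out windows at 0, was -0.08 for 5-aza-dc, 0.02 for theophylline and -0.01 for both etoposide and propyl gallate. For etoposide and propyl gallate the sign was opposite to that of the difference in means, and the median log2 ratio was 0.0066 and 0.0060. In windows under 10% the difference from the control was -0.0938 percentage points (-0.135 to -0.0522) for etoposide and -0.0924 (-0.132 to -0.0526) for propyl gallate.

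The difference after 5-aza-dc was largest at intermediate levels. With windows sorted by their mean over the 5 libraries, it was -0.466 percentage points under 10%, -2.74 (-2.96 to -2.52) at 10% to 30%, -3.70 (-3.96 to -3.45) at 30% to 70%, -1.51 at 70% to 90% and -0.735 at 90% or more. The other chemicals had no such form. Theophylline was higher at every level, by 0.0982 to 1.22. Etoposide differed from the control by -0.554 (-0.811 to -0.296) at 30% to 70% and by 0.687 at 70% to 90%. Over the 1305 windows from 10% to 70%, 5-aza-dc lay below each of the other 4 libraries, with differences of -3.26 from the control, -2.87 from etoposide, -4.05 from theophylline and -3.36 from propyl gallate. The 6 pairs of libraries without 5-aza-dc differed there by at most 1.18.

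**Figure D3:**
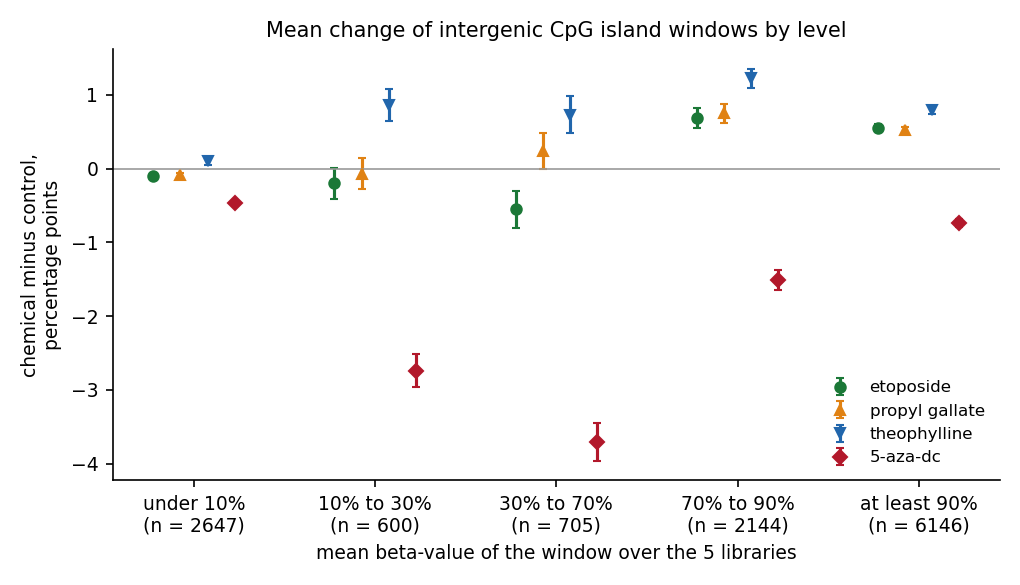
Mean difference of the chemical minus the vehicle control (vertical axis, percentage points) by the mean β-value of the window over the 5 libraries (horizontal axis), with 95% counting intervals. The 5-aza-dc points lie below 0 at every level and reach -3.70 at 30% to 70%, and the theophylline points lie above 0 at every level.

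Set beside other classes of windows, the differences from the control were not the same over all levels. There, the intergenic islands stood between promoter islands and intergenic windows outside islands for the 3 chemicals above the control. These classes also differ in their mix of levels. In the vehicle control 71.8% of promoter islands and 0.688% of intergenic windows outside islands were under 10%. Intergenic islands minus promoter islands was 0.279 (0.233 to 0.326) for etoposide, 0.487 (0.441 to 0.532) for theophylline, 0.332 (0.287 to 0.377) for propyl gallate and -0.326 (-0.374 to -0.278) for 5-aza-dc. Intergenic islands minus intergenic windows outside islands was -0.279 (-0.324 to -0.234) for etoposide, -0.393 (-0.437 to -0.349) for theophylline, -0.305 (-0.349 to -0.262) for propyl gallate and -0.0986 (-0.145 to -0.0517) for 5-aza-dc. The mean over all windows differed from the control by 0.513, 0.975, 0.566 and -1.03 in this order. Against gene-body islands the 5-aza-dc difference was -0.0287 with an interval from -0.0792 to 0.0217, which includes 0. At 30% to 70%, intergenic minus promoter islands was -0.228 for 5-aza-dc (-0.554 to 0.0977), which includes 0, and intergenic islands minus intergenic windows outside islands was -1.30 (-1.62 to -0.985). At that level intergenic islands minus promoter islands was -1.35 (-1.67 to -1.02) for etoposide. The order seen with all levels together thus did not hold within each level. For etoposide the same difference was -0.0316 (-0.0765 to 0.0132) under 10% and 0.108 (-0.121 to 0.337) at 70% to 90%, which both include 0. At 90% or more it was 0.224 (0.114 to 0.333). Windows with a RefSeq start differed from the control after 5-aza-dc by -0.889 (-0.981 to -0.797), those inside a gene by -1.001 (-1.06 to -0.943) and those outside genes by -1.22 (-1.29 to -1.15).

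Few single windows differed strongly. A window was called where its methylated and unmethylated calls differed between the chemical and control libraries by a two-sided Fisher's exact test (adjusted p under 0.01, Benjamini-Hochberg over all 288391 windows) and its β-value moved by 25 percentage points or more. After etoposide 15 intergenic island windows were higher and 19 lower, which is 0.123% and 0.155% of them, beside 0.0999% and 0.0908% of all windows. After propyl gallate 13 were higher and 12 lower, beside 0.0936% and 0.0832% of all windows. After theophylline 15 were higher and 13 lower, beside 0.106% and 0.0694%. After 5-aza-dc 8 were higher and 24 lower, or 0.0653% and 0.196%, beside 0.0742% and 0.235%. Pairs of chemical libraries, compared without the control, gave 43 called windows between etoposide and propyl gallate (0.351%, beside 0.196% of all windows), 39 between etoposide and theophylline (0.319%, beside 0.195%) and 32 between propyl gallate and theophylline (0.261%, beside 0.174%).

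In all, 94 windows (0.768%, beside 0.665% of all windows) were called after at least 1 chemical, 74 after 1 chemical, 15 after 2, 5 after 3 and 0 after 4, and 2 were called in both directions. Their median depth in the vehicle control was 113.5 calls, against 996 over all intergenic islands, so the called windows were the shallower ones. Of the 94, 10 overlapped a RefSeq start stretch, 49 lay inside a RefSeq gene and 35 outside. These sets hold 978, 6256 and 5008 of the 12242 windows, so the larger sets also hold more of the called ones. The range over the 5 libraries was under 10 percentage points in 10366 windows (84.7%) and at least 25 in 195 (1.59%), beside 1.92% of all windows, and 7984 (65.2%) kept their level class in all 5 libraries.

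With the same Fisher's exact test and no minimum difference, 1734 windows (14.2%) were lower and 484 (3.95%) higher after 5-aza-dc, beside 10.4% and 3.55% of all windows. After theophylline 1227 (10.0%) were higher and 475 (3.88%) lower, beside 8.13% and 2.86%. After etoposide 979 (7.997%) were higher and 603 (4.93%) lower, beside 6.37% and 3.74%, and after propyl gallate 973 (7.95%) and 637 (5.203%), beside 6.55% and 3.71%. Intergenic islands had more calls than the median window, and a band of depth in the control library narrowed most of these gaps without making depth equal. Among the 4894 windows with 500 to under 1500 control calls, 13.6% were lower after 5-aza-dc against 13.4% of all windows of that depth, and 10.6% were higher after theophylline against 10.99%. Windows lower after theophylline were 4.13% there against 3.49%. By level, 200 of 705 windows (28.4%) at 30% to 70% and 182 of 600 (30.3%) at 10% to 30% were lower after 5-aza-dc, beside 17.4% and 24.7% of all windows at those levels, which had fewer calls (medians of 466 and 901 against 1062 and 1468).

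The 18 windows with the largest called rises and falls (3 in each direction for each chemical, with at least 30 calls in all 5 libraries, 6 of them called after 2 or more chemicals) show what these differences looked like. Of them, 11 overlapped a RefSeq gene. All adjusted p-values below are from Fisher's exact test between 2 libraries, adjusted with Benjamini-Hochberg over all windows.

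The largest difference of the 18 was on chromosome 10 (chr10:86389001-86390000, outside RefSeq genes). It had 14.3% in the vehicle control (20 of 140 calls), 16.4% after 5-aza-dc (8 of 50), 0.00% after etoposide (0 of 148, which allows up to 2.53% by the Wilson interval), 81.6% after theophylline (61 of 75) and 86.2% after propyl gallate (52 of 60). The theophylline and propyl gallate libraries were high, the control and 5-aza-dc libraries low, and the etoposide library lowest. By Fisher's exact test the difference from the control was 71.9 percentage points for propyl gallate (adjusted p = 2.2e-19) and 67.3 for theophylline (adjusted p = 3.6e-19), and -14.3 for etoposide (adjusted p = 1.5e-05). The nearby shore window at chr10:86391001-86392000 had 84.5% to 93.5% in the 5 libraries. β-values here are as deposited, and the calls are those before scaling, so the quotients can differ slightly.

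On chromosome 5 (chr5:5886001-5887000, outside RefSeq genes) the libraries took both directions. It was at 37.7% in the vehicle control (60 of 159), 0.00% after 5-aza-dc (0 of 84), 76.7% after etoposide, 70.2% after theophylline and 61.0% after propyl gallate. By Fisher's exact test the adjusted p against the control was 1.7e-11 for 5-aza-dc and 3e-08 for etoposide. The neighbouring window of the same island had 40.9%, 27.0%, 34.2%, 33.9% and 41.3% in this order, so it was lowest after 5-aza-dc too and did not stand out in the other libraries. The 0 of 84 calls allow a level of up to 4.37% by the Wilson interval. On chromosome 8 (chr8:98973001-98974000, outside RefSeq genes) the values were 45.5%, 0.00%, 3.49%, 56.9% and 24.7% in this order, the 5-aza-dc value from 0 of 194 calls, which allow up to 1.94%. The next windows of this island, on either side, had 29.4% to 42.2% and 1.64% to 2.54%, so the level differed along the island in every library.

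At DRD5P1, a pseudogene of the dopamine receptor D5 whose reads near-identical copies may share (chr2:91685001-91686000), the control had 43.4% (178 of 410) and the etoposide library 98.6% (115 of 117), while the others had 39.6% to 59.1%. The etoposide library was 55.1 percentage points above the control (Fisher's exact test, adjusted p = 6.5e-28). A window assigned to NR4A2, a nuclear receptor of dopamine neurons, and inside LOC124906082 (chr2:156367001-156368000), had 81.7% in the control, 71.9% after 5-aza-dc, 37.3% after etoposide (16 of 43), 33.3% after theophylline (10 of 31) and 78.3% after propyl gallate. The etoposide and theophylline libraries were low and had the fewest calls there.

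The window with the start of ACACB, the mitochondrial acetyl-CoA carboxylase that restrains fatty acid oxidation (chr12:109154001-109155000), was the only one of the 18 with a RefSeq start. The 250 bases before the start hold 21 CpGs, shown in capitals.
ACACB, chr12:109154429-109154678, plus strand: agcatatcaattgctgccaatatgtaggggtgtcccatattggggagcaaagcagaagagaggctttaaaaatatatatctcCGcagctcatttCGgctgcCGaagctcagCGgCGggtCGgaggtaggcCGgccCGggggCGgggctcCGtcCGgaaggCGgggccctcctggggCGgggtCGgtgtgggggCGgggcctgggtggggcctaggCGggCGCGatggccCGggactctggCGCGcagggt
The window was at 31.0% in the vehicle control (75 of 242), 62.9% after 5-aza-dc (32 of 51), 31.1% after etoposide (86 of 276), 27.3% after theophylline (64 of 235) and 64.0% after propyl gallate (67 of 105). The 2 high libraries were also the shallowest there. By Fisher's exact test these libraries differed from the control by 33.0 percentage points for propyl gallate (adjusted p = 1.6e-06) and 31.9 for 5-aza-dc (adjusted p = 0.00064). The shore window before it had 84.0% to 93.8% in the 5 libraries.

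In MYO16, an unconventional myosin of neurons (chr13:109141001-109142000), all 4 chemical libraries lay below the control. The control had 83.5% (101 of 121), with 44.5% after 5-aza-dc, 53.6% after etoposide, 59.4% after theophylline and 41.3% after propyl gallate, and adjusted p-values of 6.9e-08, 7.7e-06, 0.0082 and 6.6e-11 by Fisher's exact test. The neighbouring island window had 84.7% in the control and 72.5%, 73.0%, 72.1% and 81.1% in the same order, and so was highest in the control too.

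Of the other named windows, ZNF490, a zinc finger gene (chr19:12597001-12598000), had 92.9% in the control, 70.2% after 5-aza-dc, 97.6% after etoposide, 47.8% after theophylline and 70.1% after propyl gallate. ANAPC5, a subunit of the anaphase-promoting complex (chr12:121351001-121352000), had 62.5% after propyl gallate (129 of 206) and 93.4% to 97.6% in the other 4 libraries. RBM4B, an RNA-binding protein (chr11:66669001-66670000), had 59.5% after propyl gallate (20 of 34) and 84.1% to 100% elsewhere. GALNT9, a glycosyltransferase of mucin-type sugars (chr12:132219001-132220000), had 83.0% after theophylline (126 of 152) and 37.6% to 64.6% elsewhere. SEMA6D, an axon guidance semaphorin (chr15:47315001-47316000), had 34.3% after theophylline from 10 of 30 calls and 70.6% to 77.3% elsewhere. HECTD4, a HECT-domain ubiquitin ligase (chr12:112173001-112174000), had 32.2% in the control and 61.5% after 5-aza-dc, with the other 3 between 42.1% and 54.2%. The 5 windows left differed by 30.4 to 42.0 percentage points in the comparison that named them. One lay in LOC105370328 (chr13:98081001-98082000), with 58.0% after etoposide and 91.2% to 100% elsewhere, and 30 calls in the control.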

How the data were processed

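DNA methylation of 5 libraries from the human iPSC line 201B7, 1 per condition, was measured with the Zymo-Seq RRBS kit on a NovaSeq sequencer. The submitters' processing notes name FastQC 0.11.7, Trim Galore 0.5.0, Bismark 0.20.0, SAMtools 1.9, methylKit 1.10.0 and hg38. The authors counted calls in windows of 1000 bases, kept windows with at least 10 calls and below the 99.9th percentile, and scaled coverage between libraries. The deposited vehicle control columns are whole counts, the deposited columns of the other 4 libraries are scaled calls used as a score, and the deposited β-value is a fraction. Labels and methods name different DNA extraction kits.

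Scaling factors of 1.09 to 1.21 were recovered from the score columns and divided out. The two-sided Fisher's exact test, planned on deposited counts, was therefore run on recovered calls, with Benjamini-Hochberg adjustment over 288391 windows, an adjusted p under 0.01 and at least 25 percentage points. Intervals are 95% Wilson intervals or come from binomial variance, and cover counting error only, since PCR reads without molecular identifiers are not independent molecules. Log2 ratios leave out windows at 0. Windows were named as the 3 largest called rises and falls per chemical with at least 30 calls in all libraries. Genes, starts and sequences are from RefSeq (GRCh38.p14), where 97.4% of 32903 matched genes had a start or an end within 1000 bases of the table's. Window sequence features were planned and not analysed here, because the genome used here is another build. The members and gene lists were chosen with earlier results of these data known, and the split by RefSeq overlap, the depth band, the filter of 100 calls on called windows, the intermediate windows and the printed promoters after seeing the data. Python 3.11.15, numpy 2.4.6, pandas 2.3.3, scipy 1.17.1, numba 0.67.0 and matplotlib 3.10.9 were used, and scripts were tested on simulated data.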

Additional observations from a re-analysis of the deposited data

How the results depend on the processing

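With 1 library per condition no library could be left out. No paired analysis was possible because each condition has 1 library, so no block over replicates can be fitted. Of 112 alternative values for 18 results, 50 stayed close to the reported value, 58 moved and 4 reversed. The cause of a move was not tested except where fewer windows or calls enter by construction.

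The difference in mean β-value kept its sign for every chemical under each alternative run. With all calls pooled it was -2.25 for 5-aza-dc, 1.56 for theophylline and 0.226 for propyl gallate. The median of the window differences was -0.636 for 5-aza-dc, 0.171 for etoposide, 0.427 for theophylline and 0.167 for propyl gallate. A minimum of 100 calls gave -1.13 for 5-aza-dc, 0.649 for theophylline and 0.333 for propyl gallate, and one of 30 calls gave -1.13 for 5-aza-dc. In windows without a RefSeq gene it was 0.423 for propyl gallate and -1.22 for 5-aza-dc.

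The mean log2 ratio reversed for etoposide, to 0.0066 as a median and 0.0073 as the log2 of the ratio of means, and for propyl gallate, to 0.0060 and 0.0083. For theophylline these were 0.014 and 0.016, and for 5-aza-dc -0.022 and -0.024. Adding 1 percentage point to every β-value gave -0.063 for 5-aza-dc, -0.0072 for etoposide and -0.0020 for propyl gallate.

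Counts of called windows followed the threshold and the depth. They are counts of intergenic island windows alone. Shares over all windows were not computed for these alternatives, except with no minimum, where they are given above. The counts therefore do not compare intergenic islands with other windows. At a minimum of 10 percentage points, 143 were higher and 113 lower after etoposide, 145 and 102 after propyl gallate, 175 and 88 after theophylline, and 97 and 304 after 5-aza-dc. With no minimum they were 979 and 603, 973 and 637, 1227 and 475, and 484 and 1734. With calls divided by 2 they were 6 and 7, 5 and 4, 4 and 6, and 0 and 12. With at least 30 calls, 9 were higher after etoposide and 5 after 5-aza-dc. With at least 100 calls, chosen after seeing the data, they were 3 and 5, 3 and 2, 2 and 3, and 1 and 9.

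With 1 value per run, 17.96% lay under 10% and 69.1% at 70% or more, and in windows without a RefSeq gene 17.0% and 71.4%.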

Other observations

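Over the autosomes, the mean vehicle control β-value of the intergenic islands ranged from 58.7% on chromosome 6, with 32.1% of 589 windows under 10%, to 73.4% on chromosome 18, with 13.98% of 279. Windows assigned to olfactory receptor genes, of which there were 19 for 13 genes, had a median of 90.1%. The 7 windows assigned to protocadherin genes had a median of 90.3%, with 3 under 10% and 4 at 70% or more. The 9 windows assigned to immunoglobulin and T-cell receptor segments had a median of 62.6%.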
